A study of Mus musculus with 2 samples.

Results

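The Id genes Id1, Id2, Id3 and Id4, which encode inhibitors of differentiation, were described across the cell types of the neonatal mouse ovary in single-cell RNA sequencing data. They are 4 of the 21018 genes listed in both deposited tables, taken by their symbols, and all 4 had counts in both libraries. Their levels and their shares of positive cells were read in 6 cell classes, each gated by marker transcripts. These classes held 4274 of 5199 cells in 1 library and 3603 of 4819 in the other. The genes were chosen by their measured levels and shares across these classes, so those levels and the differences between the libraries are given as a description and carry no test.

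Ovarian cells of C57BL pups aged 3 days after birth (PD3) were sequenced as 1 library of the 10x Genomics 3′ assay per group. In the group named MLT the mothers were given melatonin from E16.5, late in pregnancy, to PD3, with DMSO in place of DEHP, a phthalate used to soften plastics. In the group named DEHP_MLT the mothers were gavaged with DEHP and also given melatonin. Melatonin is therefore common to both groups, and the labels name no number of pups or ovaries behind a library. With 1 library per group the difference between the groups cannot be told apart from any other difference between these 2 preparations. The name of each deposited table contradicts the title of the sample it belongs to. The titles were followed, and all directions below would reverse if the table names were right. Values within 1 library do not depend on this.

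Id proteins carry a helix-loop-helix domain but lack the basic region that contacts DNA. They pair with E proteins, the common partners of tissue-specific basic helix-loop-helix (bHLH) factors, and keep them from DNA. Transcription of Id genes is a direct response to bone morphogenetic proteins (BMPs), whose receptors phosphorylate Smad1, Smad5 and Smad9, which then enter the nucleus with Smad4. In the ovary the oocyte factors Figla and Sohlh1 and the stromal factor Tcf21 belong to the bHLH family. Of these, Figla and Tcf21 pair with E proteins.

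The bases before the start of transcription are shown because Smad complexes are known to bind GC-rich elements and CAGAC boxes of Id genes. Windows of 250 bases for 3 of the 4 genes, Id2, Id3 and Id4, were matched by symbol in RefSeq on GRCm38.p6, not on the mm9 build named for the deposited counts. They are written 5′ to 3′ on the strand of the gene, with GGCGCC and CAGAC (or its reverse complement GTCTG) in capitals. They lie at chr12:25096093-25096342 on the minus strand for Id2, chr4:136143572-136143821 on the plus strand for Id3 and chr13:48260866-48261115 on the plus strand for Id4.
Id2: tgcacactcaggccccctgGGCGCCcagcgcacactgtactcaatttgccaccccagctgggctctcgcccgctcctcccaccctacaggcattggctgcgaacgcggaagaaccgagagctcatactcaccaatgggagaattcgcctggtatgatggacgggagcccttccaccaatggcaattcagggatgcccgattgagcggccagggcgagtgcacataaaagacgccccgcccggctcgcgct
Id3: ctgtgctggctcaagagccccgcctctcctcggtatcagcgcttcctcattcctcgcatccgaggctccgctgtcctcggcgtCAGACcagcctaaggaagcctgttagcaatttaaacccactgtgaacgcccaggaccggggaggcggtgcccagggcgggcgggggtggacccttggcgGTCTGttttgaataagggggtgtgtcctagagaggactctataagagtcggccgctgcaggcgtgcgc
Id4: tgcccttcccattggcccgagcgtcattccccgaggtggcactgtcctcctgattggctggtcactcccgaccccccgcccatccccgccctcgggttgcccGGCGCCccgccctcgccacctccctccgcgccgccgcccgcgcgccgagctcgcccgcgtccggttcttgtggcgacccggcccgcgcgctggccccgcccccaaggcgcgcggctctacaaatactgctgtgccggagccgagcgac
GGCGCC, which reads the same on both strands, began 231 bases before the start in Id2 and 148 before it in Id4. It stood in 9.59% of 32851 mouse windows of this length. CAGAC on either strand occurred in Id3 only of the 3, at 167 and 68 bases before the start, and in 42.2% of all windows. The E-box CANNTG, the site of E proteins, occurred once in Id2, at 196 bases, and in 66.2% of all windows. GC content was 62.8% in Id2 and Id3 and 75.6% in Id4, against a median of 52.4%. These are matches of letters in these windows and not measured binding.

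Levels are UMIs (unique molecular identifiers, each 1 counted transcript) per 10000 UMIs of a class, summed over its cells in 1 library, with exact Poisson 95% intervals. The libraries held 80657690 and 117355739 UMIs in all, with medians of 10834 UMIs per cell labelled MLT and 13161 labelled DEHP_MLT, and 4 barcodes were present in both. Intervals cover counting error only, since reads from 1 library say nothing about the spread between animals. The gates gave 225 and 654 germ cells (MLT and DEHP_MLT in that order), 686 and 324 granulosa cells, 240 and 307 surface epithelial cells, 2810 and 2113 stromal cells, 175 and 114 perivascular cells and 138 and 91 endothelial cells. Of markers not used in the gates, all 6 for germ cells, all 7 for surface cells, all 6 for perivascular cells and all 6 for endothelial cells were highest in their own class in both libraries. For stroma 6 of 6 were in MLT and 5 of 6 in DEHP_MLT. For granulosa cells 5 of 7 were, since Amhr2 was higher in surface cells and Wnt4 in stroma. Red blood cell precursors, 34 and 597 cells in a gate led by haemoglobin genes, served as the level that free RNA can give. The markers of this gate made up 8026 and 4361 of 10000 UMIs there, which lowers the level and share of every other gene in those cells. In the 6 classes they made up 3.40 to 9.25 per 10000 labelled MLT and 56.6 to 69.7 labelled DEHP_MLT, so free RNA of these markers was higher in the latter.

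Id1 was highest in endothelial cells of both libraries and, between the libraries, differed most in stroma and perivascular cells. Per 10000 UMIs it stood at 3.54 in endothelial cells labelled MLT (3.34 to 3.74) and 9.38 labelled DEHP_MLT (9.00 to 9.77). In stroma it stood at 0.740 (0.710 to 0.772) and 4.24 (4.17 to 4.32). The intervals do not overlap in either class, and stroma moved from the fourth rank in MLT to the second in DEHP_MLT. In perivascular cells, the pericytes and smooth muscle around vessels, Id1 was 0.737 and 3.87. In granulosa cells, which surround the oocyte, it was 1.21 and 1.75, in surface epithelium 0.636 and 1.11, and in germ cells 1.03 and 1.08. In MLT the interval of perivascular cells (0.620 to 0.869) overlapped those of stroma and surface cells, while stroma lay above surface cells (0.583 to 0.693). In DEHP_MLT the intervals of stroma and perivascular cells overlapped, as did those of surface and germ cells.

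**Figure D1:**
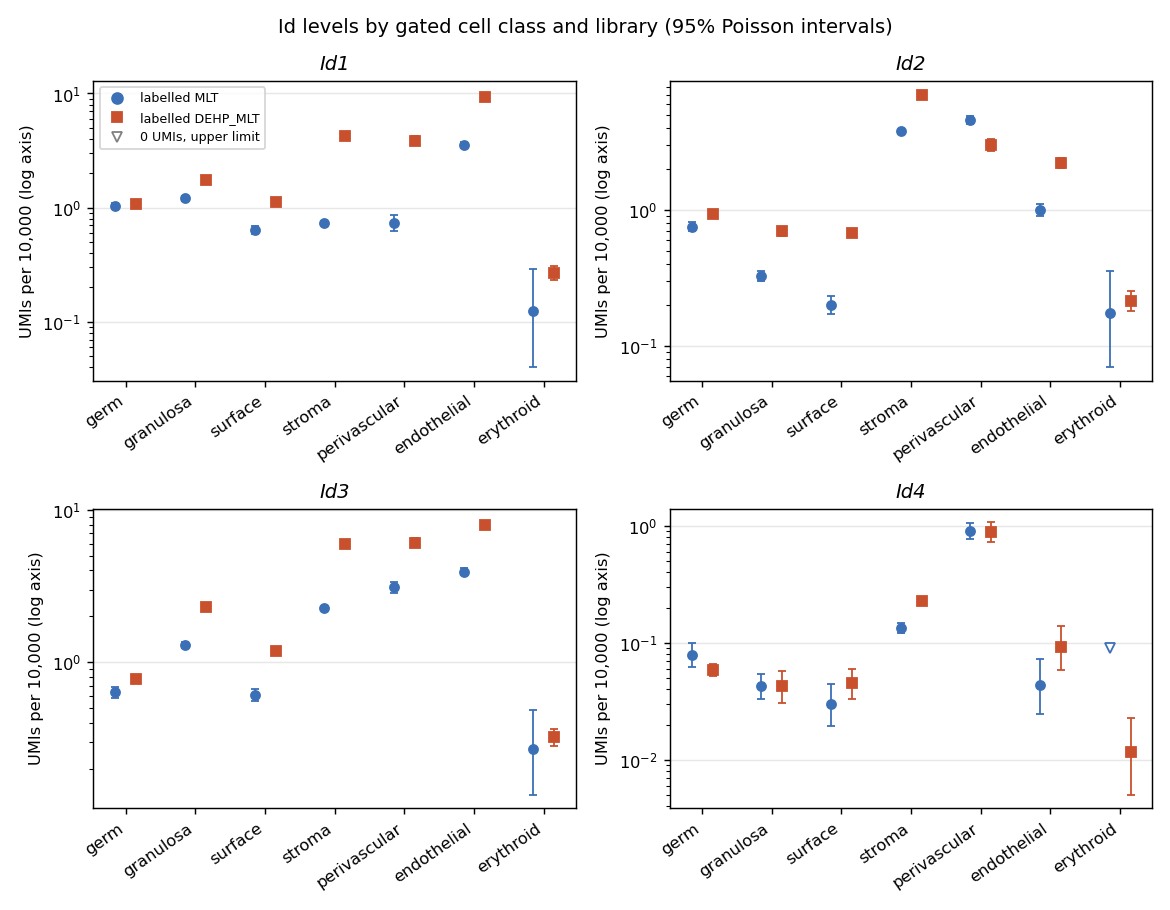
Levels of the 4 Id genes in UMIs per 10000 on a log axis, by gated class, in the library labelled MLT (circles) and the library labelled DEHP_MLT (squares), with exact Poisson 95% intervals; an open triangle is the upper limit of a level at 0 UMIs. Id1 in stroma stands at 0.740 and 4.24, while Id4 in perivascular cells stands at 0.904 and 0.891.

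The log2 ratio of Id1 between the libraries, DEHP_MLT over MLT, was 2.50 in stroma (2.45 to 2.58), 2.38 in perivascular cells (2.12 to 2.67), 1.40 in endothelial cells (1.31 to 1.51) and 0.80 in surface cells (0.66 to 0.96). It was 0.53 in granulosa cells and 0.07 in germ cells. A gene was called different where the levels were at least 1.5-fold apart, their intervals did not overlap and either level reached 0.2 per 10000. By that rule Id1 was higher in 4 of 6 classes and lower in 0. Of all genes above this minimum, 0.996% were called higher in stroma, 4.79% in perivascular cells, 1.55% in endothelial cells, 1.89% in surface cells, 0.751% in granulosa cells and 1.2% in germ cells. Called lower were 8.01%, 9.21%, 10.4%, 10%, 7.53% and 3.36% of genes in the same order. In stroma 99.9% of 7025 genes had a smaller ratio than Id1. The median gene lay between -0.14 and -0.07 in the 6 classes, so relative to it each Id ratio would be larger by 0.07 to 0.14. In surface cells with UMIs of the proliferation genes Mki67 or Top2a Id1 was 0.563 and 1.23. In surface cells without such UMIs it was 0.836 and 0.731, a log2 ratio of -0.19 (-0.50 to 0.11). The call in surface cells was also lost with the gate minimum halved (0.43) and with equal weight per cell (0.51). It was lost too in cells without MHC class II UMIs (0.57), where only 20 cells with 20 Id1 UMIs were labelled MLT.

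**Figure D2:**
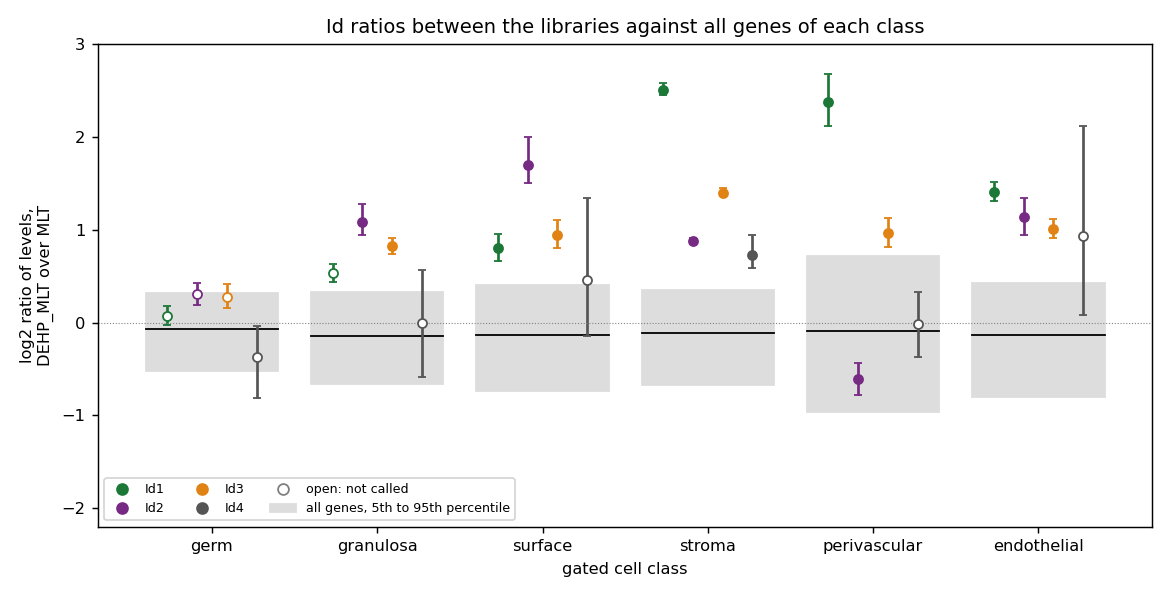
Log2 ratio of the level labelled DEHP_MLT over MLT for each Id gene by gated class, with 95% intervals for counting error; grey boxes span the 5th to 95th percentile of all genes of the class, black lines mark their median, and open symbols did not meet the call rule. Id1, Id2 and Id3 lie above the grey box in granulosa, surface, stromal and endothelial cells, while Id2 lies below 0 in perivascular cells at -0.60.

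Id2 was highest in the mesenchymal cells, stroma and perivascular cells. In stroma it stood at 3.78 per 10000 labelled MLT (3.71 to 3.85) and 6.97 labelled DEHP_MLT (6.87 to 7.06), a log2 ratio of 0.88 (0.85 to 0.91). In perivascular cells it stood at 4.59 (4.30 to 4.91) and 3.02 (2.72 to 3.34), a ratio of -0.60 (-0.78 to -0.43). Perivascular cells thus ranked first for Id2 in MLT and stroma first in DEHP_MLT. The perivascular cells also held stroma gate markers at 51.0% and 38.6% of the stroma level. With those that passed both gates left out, 84 and 81 perivascular cells remained, and 14 pairs were still called higher and 1 lower. The part of stromal transcripts in the perivascular Id values was not tested. Epithelial and granulosa cells were lowest in both libraries, with levels of 0.324 and 0.698 in granulosa cells and 0.201 and 0.675 in surface cells. The ratio was 1.08 in granulosa cells (0.94 to 1.27) and 1.70 in surface cells (lower bound 1.51), where Id2 had the largest ratio of the 4 genes. Endothelial cells held 0.9997 and 2.20, a ratio of 1.13, and germ cells 0.752 and 0.932, a ratio of 0.31. Id2 met the call rule in 4 classes as higher and in 1, perivascular cells, as lower. The lower call was lost under 6 of 17 alternatives, among them ratios centred on the median of all genes. In surface cells labelled MLT Id2 was 1.16 times its level in red cell precursors, which rested on 7 UMIs (0.0695 to 0.356). In granulosa cells labelled MLT it was 1.87 times that level, and the intervals overlapped (0.297 to 0.352 in granulosa cells). In both classes Id2 labelled MLT could therefore not be told apart from the level that free RNA can give. Surface cells also held germ cell gate markers at 2.23% and 8.27% of their germ cell level, and granulosa gate markers at 11.6% and 16.7% of theirs. The part of either in the Id values of surface cells was not tested.

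The perivascular gate joins cells led by Rgs5, a pericyte gene, and cells led by Myh11, the myosin of smooth muscle, and this split was made after the lower Id2 had been seen. Rgs5-led cells numbered 80 in MLT and 87 in DEHP_MLT, and Myh11-led cells 94 and 27. Id2 was 0.485 (0.340 to 0.672) and 0.763 (0.593 to 0.967) in Rgs5-led cells. In Myh11-led cells it was 7.25 (6.77 to 7.76) and 8.35 (7.45 to 9.32). Within neither kind of cell was Id2 lower in DEHP_MLT, the ratios being 0.64 and 0.20, and neither met the call rule. Myh11-led cells, which held over 10 times the Id2 of Rgs5-led cells in the same library, were the smaller share of the gate in DEHP_MLT. Id3 had the opposite split, at 5.54 and 6.89 in Rgs5-led cells and 1.54 and 4.19 in Myh11-led cells. Id1 was higher in DEHP_MLT in both kinds, at 1.27 and 4.06 in Rgs5-led cells and 0.404 and 3.42 in Myh11-led cells. Called higher were 2.01% of all genes in Rgs5-led and 2.33% in Myh11-led cells, and called lower 5.7% and 3.06%.

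**Figure D3:**
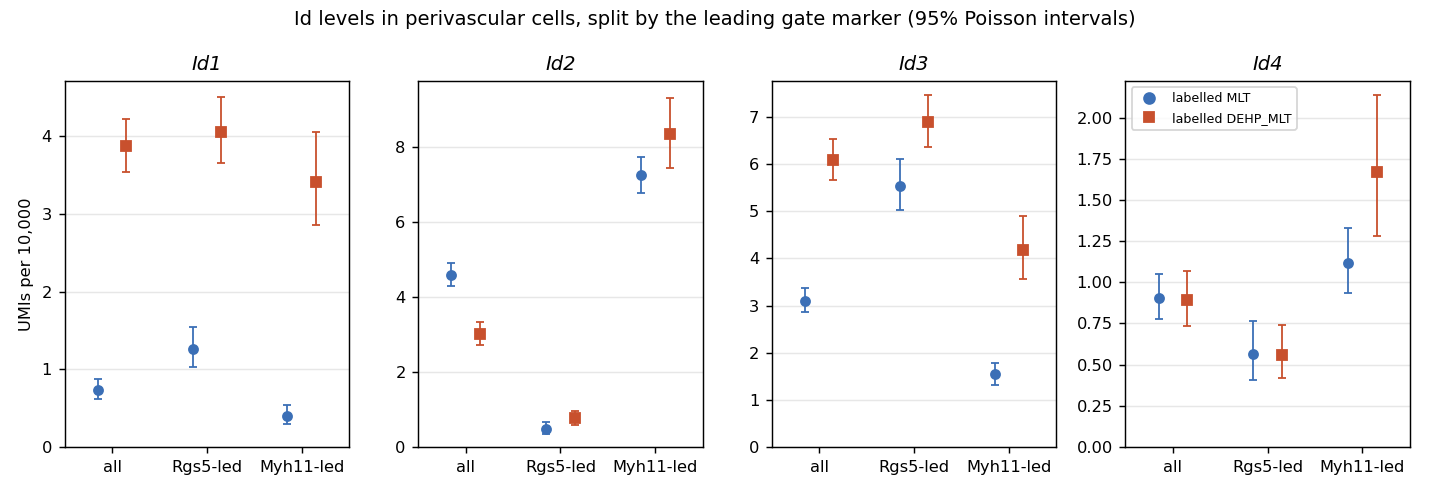
Levels of the Id genes in UMIs per 10000 in all perivascular cells, in Rgs5-led cells (80 labelled MLT, 87 labelled DEHP_MLT) and in Myh11-led cells (94 and 27), with exact Poisson 95% intervals. Id2 is lower in DEHP_MLT over all perivascular cells, at 3.02 against 4.59, but not within Rgs5-led cells (0.763 against 0.485) or Myh11-led cells (8.35 against 7.25).

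Id3 was highest in the cells of vessels. It stood at 3.93 per 10000 (3.72 to 4.15) and 7.91 (7.57 to 8.27) in endothelial cells, at 3.10 and 6.09 in perivascular cells and at 2.26 and 5.97 in stroma. Granulosa cells held 1.30 and 2.31, surface cells 0.610 and 1.18, and germ cells 0.637 and 0.775. The order of classes was nearly the same in both libraries, with germ and surface cells overlapping in MLT and perivascular cells and stroma in DEHP_MLT. The ratio was 1.40 in stroma (1.36 to 1.44), 1.01 in endothelial cells, 0.97 in perivascular cells, 0.94 in surface cells and 0.82 in granulosa cells, and these 5 classes met the call rule as higher. In germ cells it was 0.28 (0.16 to 0.41) and did not. The call in surface cells was lost in cells without Mki67 or Top2a UMIs, at 0.53. In perivascular cells 97.8% of genes had a smaller ratio than Id3, against at least 99.2% in the other 4 classes called.

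Id4 was a gene of perivascular cells. Its level there was 0.904 per 10000 labelled MLT (0.775 to 1.05) and 0.891 labelled DEHP_MLT (0.734 to 1.07), a ratio of -0.02 (-0.38 to 0.33). In Myh11-led cells, the smaller share of the gate in DEHP_MLT, it was 1.12 (0.934 to 1.33) and 1.67 (1.28 to 2.14), with overlapping intervals. In Rgs5-led cells it was 0.566 and 0.561. The next class, stroma, held 0.135 and 0.230, and the others between 0.0301 and 0.0925. Perivascular cells lay 30.1-fold above the lowest class in MLT and 20.8-fold in DEHP_MLT. The stromal difference, a ratio of 0.72 (0.58 to 0.95) resting on 410 and 652 UMIs, was the only one of the 6 to meet the call rule. It no longer did with a pseudocount of 0.1 (0.49), in cells without Mki67 or Top2a UMIs (0.48) or in cells below the median immediate-early level (0.24). In endothelial cells the ratio of 0.93 rested on 15 and 23 UMIs, with overlapping intervals and levels under the minimum of 0.2. No UMI of Id4 was counted in 34 red cell precursors labelled MLT, where 3 counts would be 0.0741 per 10000, and 8 were counted in the 597 labelled DEHP_MLT.

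In germ cells 0 of the 4 Id genes met the call rule, and the ratios ran from -0.38 for Id4 to 0.31 for Id2. Id1 in germ cells reached 85.3% and 62.0% of the granulosa level, while granulosa markers not used in the gates reached 8.43% and 8.75% of theirs in the same germ cells. Median depth of germ cells was 13394 UMIs in MLT and 60425 in DEHP_MLT. The part of this difference in the Id values was not tested. Cells of no gate within 25% below the germ minimum of 5 marker UMIs per 10000 had Id1 at 1.10 in MLT (61 cells) and 1.15 in DEHP_MLT (12 cells). They needed only 1 germ marker UMI, and cells of no gate had a median depth of 5441 UMIs in MLT. They were not identified as germ cells. Gated germ cells within 25% above the minimum had 0.573 (5 cells) and 1.12 (20 cells). At the stroma gate, with its minimum of 30, Id2 labelled MLT was 3.13 just inside (55 cells) and 1.37 just outside (59 cells). Id1 labelled DEHP_MLT was 3.90 (39 cells) and 3.83 (17 cells). The cells just outside were again cells of no gate.

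The share of positive cells was compared after each cell was thinned to 5000 UMIs, leaving out shallower cells (in stroma 255 of 2810 labelled MLT and 0 of 2113 labelled DEHP_MLT). In stroma Id1 was found in 23.0% of cells labelled MLT (587 of 2555, exact Clopper-Pearson interval 21.4% to 24.7%) and 60.9% labelled DEHP_MLT (1287 of 2113, 58.8% to 63.0%). Before thinning the shares were 36.7% and 74.1%. Id2 was found in 72.1% and 86.4% of stromal cells, and Id3 in 52.3% and 76.9%. In endothelial cells Id1 was found in 62.5% and 84.6% and Id3 in 75.8% and 94.5%. Red cell precursors gave 9.09% and 12.1% for Id1, 6.06% and 7.54% for Id2, 15.2% and 12.1% for Id3, and 0% and 0.168% for Id4 at this depth. Shares of Id2 in surface cells were 4.66% labelled MLT (2.35% to 8.19%) and 24.4% labelled DEHP_MLT (19.7% to 29.6%). The first overlapped the share in red cell precursors of that library (2 of 33 cells, 0.743% to 20.2%), and the second lay above theirs (5.55% to 9.96%). The Id2 share in granulosa cells labelled MLT, 11.4% (8.94% to 14.3%), overlapped that of red cell precursors too. Over the 24 pairs of gene and class, the share was higher in DEHP_MLT with intervals apart in 14. It was lower in 1, Id2 in perivascular cells at 56.9% and 36.0%. Thinned shares were not computed for other genes, so how often any gene differs in this way is not known and these counts are only a description.

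**Figure D4:**
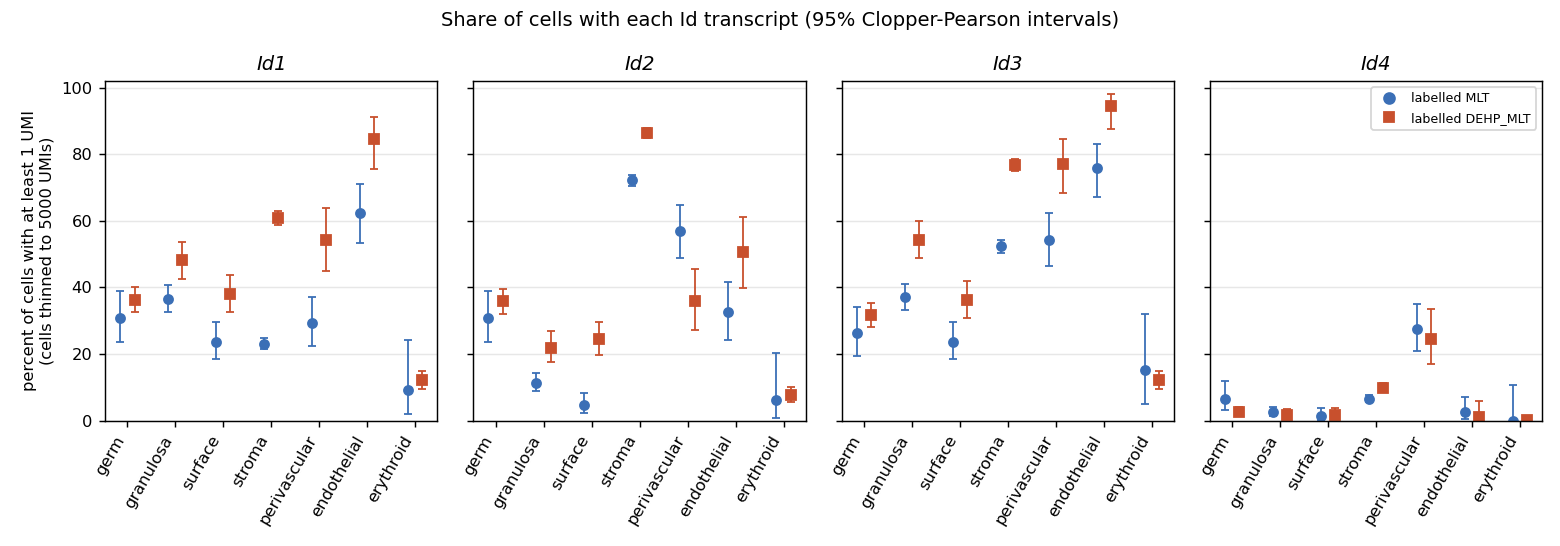
Percent of cells with at least 1 UMI of each Id gene after thinning to 5000 UMIs, by gated class and library, with exact Clopper-Pearson 95% intervals; red cell precursors at the right show the share reached there. Id1 in stroma stands at 23.0% and 60.9%, and Id4 exceeds 20% only in perivascular cells.

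More stromal cells were positive, and positive cells also held more UMIs. Stromal cells with 4 or more Id1 UMIs of 5000 were 1.68% of those labelled MLT and 21.1% of those labelled DEHP_MLT, and cells with exactly 1 were 15.1% and 19.2%. For Id3 cells with 4 or more were 9.24% and 30.9%. The spread within the library labelled DEHP_MLT was wide: the median stromal cell had 2.11 Id1 UMIs per 10000 and the 90th percentile 10.6, against 0 and 2.20 in MLT. In stroma Id1 was found more often in cells that also held Id3. Among stromal cells with Id3, Id1 was found in 27.7% labelled MLT and 67.3% labelled DEHP_MLT, against 17.8% and 39.7% of cells without Id3, with intervals apart in each library. Cells with 3 or more of the 4 genes were 13.9% and 49.8% of stroma and 15.8% and 45.1% of endothelium. In perivascular cells labelled MLT the pairing of Id2 and Id3 ran the other way. Id2 was found in 40.2% of cells with Id3 and 76.7% of cells without it, with intervals apart. In DEHP_MLT these shares were 33.0% and 46.2%, with overlapping intervals. The gate joins 2 kinds of cell with opposite shares of these genes. In MLT Id2 was found in 15.9% of Rgs5-led and 88.9% of Myh11-led cells, and Id3 in 81.2% and 33.3%. The pairing within either kind of cell was not tested.

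Cells of the libraries fell in part into different clusters, in stroma and in other classes. In an unsupervised Leiden clustering, without integration, the stromal cluster with most cells labelled DEHP_MLT was cluster 9 (58 cells labelled MLT and 1462 labelled DEHP_MLT). Those with most cells labelled MLT were clusters 2 (697 and 72), 12 (589 and 28) and 3 (508 and 2). Cells of the stroma gate were therefore also compared within each of the 7 clusters that held at least 20 of them from each library. Id1 was called higher in DEHP_MLT in 7 of 7, with ratios from 1.16 in cluster 9 to 3.11 in cluster 14, whose leading class by markers was perivascular. In cluster 9 it was 2.03 in 53 cells labelled MLT and 4.53 in 1367 labelled DEHP_MLT, and in cluster 13, which both libraries filled, 0.848 in 338 cells and 4.81 in 302. Id3 had a ratio above 0 in 7 of 7 and was called in 3, and Id2 above 0 in 7 of 7 and called in 2. Outside stroma, some clusters also held mostly 1 library, such as granulosa cluster 8 (163 and 0 cells), surface cluster 20 (8 and 147) and germ cluster 21 (8 and 294). In the 1 shared surface cluster Id1 was 0.583 and 0.787, a ratio of 0.43 that was not called, while Id2 and Id3 were called higher. In the 1 shared perivascular cluster Id1 was called higher, and Id3, at 5.66 and 7.42, was not. In the 2 shared granulosa clusters Id2 was called higher in 2 and Id3 in 1. In the 1 endothelial cluster Id1, Id2 and Id3 were called higher, and in the 1 shared germ cluster 0 of the 4 genes were. The clusters were built on variable genes chosen from all genes, with the Id genes not excluded. Shares of all genes called were not computed within clusters, so these counts of calls are only a description.

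The immediate-early genes, transcribed at once after a stimulus and also when tissue is dissociated, moved in part with the Id genes. Of this list of 20, 7 of 19 above the minimum were called higher and 0 lower in stroma, against 0.996% and 8.01% of all genes. Their median ratio was 0.38 against -0.11 for all genes. Klf4 led those called at 0.628 and 2.49 per 10000, followed by Dusp1, a phosphatase of MAP kinases, at 0.919 and 3.29, and Klf2 at 1.59 and 4.42. The most abundant members in stroma were not called, with ratios of 0.14 for Jun, 0.38 for Fos, -0.26 for Egr1 and 0.39 for Jund. In perivascular cells 9 of 19 were higher and 0 lower (4.79% and 9.21% of all genes). In germ cells 7 of 14 were higher and 0 lower (1.2% and 3.36% of all genes). The summed level of the list, given below, was lowest in germ cells. Granulosa markers not used in the gates reached 8.43% and 8.75% of their granulosa level there. The part of free RNA in these germ cell values was not tested. The list went the other way in granulosa cells, with 1 of 20 higher and 6 lower (0.751% and 7.53% of all genes). Id2 and Id3 were called higher in that class. Surface cells had 3 higher and 2 lower of 19 (1.89% and 10% of all genes). Endothelial cells had 2 and 2 of 17 (1.55% and 10.4% of all genes). The summed level of the list was 98.1 and 122 in stroma, 139 and 181 in perivascular cells, 9.90 and 14.6 in germ cells, 113 and 90.7 in granulosa cells, 82.8 and 78.8 in surface cells and 92.7 and 85.3 in endothelial cells.

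After the data had been seen, each class was also divided at the median of this summed level over the cells of both libraries. Stromal cells below it had Id1 at 0.569 in MLT and 1.55 in DEHP_MLT, a ratio of 1.43 (1.33 to 1.57). Stromal cells above it had 0.949 and 5.93, a ratio of 2.63 (2.56 to 2.73). In stroma the Id1 ratio was above 0 on both sides of the median and larger above it. Endothelial Id1 had a ratio of 1.63 below and 1.40 above. Perivascular Id1 had 1.02 below and 2.53 above. In surface cells Id1 had 0.02 below and 1.04 above, and in granulosa cells 0.10 below and 0.85 above. In both classes Id1 met the call rule above the median and not below it. Over all cells granulosa Id1 did not meet it. The cells on either side of the median were not matched for depth. The part of the immediate-early genes, or of dissociation, in the Id values was not tested. Below the median Id2 had a ratio of 0.60 in granulosa cells and 0.93 in surface cells, against 1.08 and 1.70 over all cells. Id3 had 0.78 and 0.30 there, against 0.82 and 0.94, and 0.30 did not meet the call rule. Id3 in perivascular cells, at 0.43 below the median, did not meet it either. Over all 24 pairs, 10 met the call rule as higher below the median and 17 above it, against 14 over all cells. Shares of all genes called were not computed below or above the median, so these counts are only a description.

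**Figure D5:**
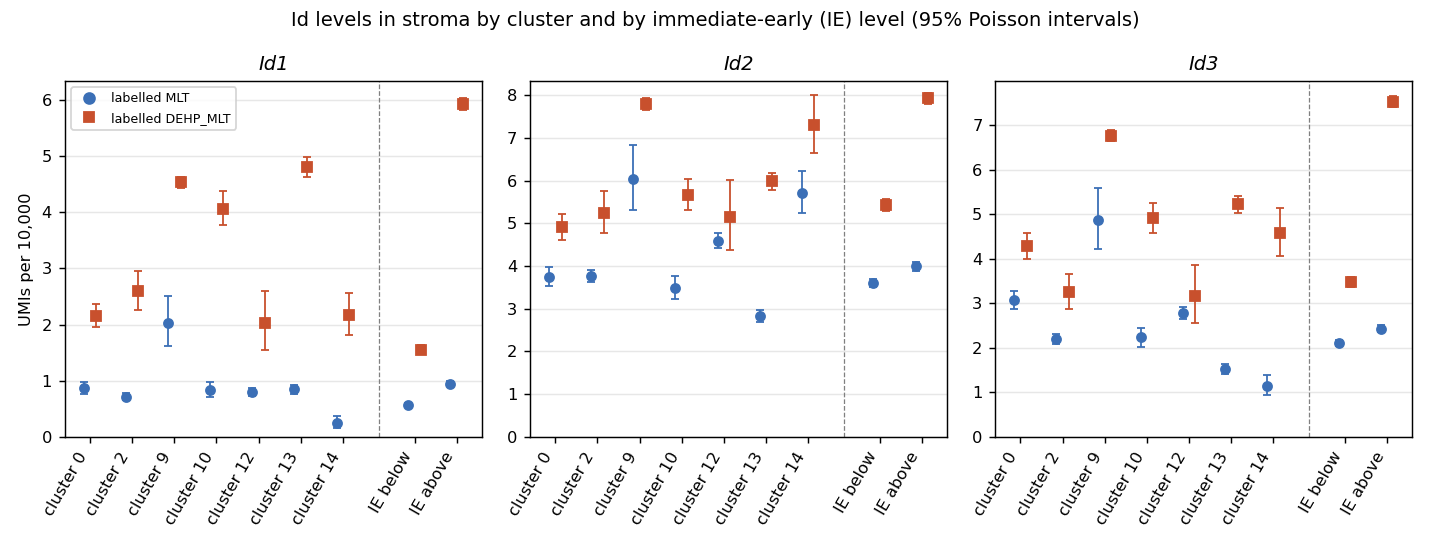
Levels of Id1, Id2 and Id3 in UMIs per 10000 in stromal cells within each of 7 clusters (left of the dashed line) and below or above the median summed level of 20 immediate-early (IE) genes (right), with exact Poisson 95% intervals. Id1 is higher in DEHP_MLT in each pair, with 1.55 against 0.569 below the median IE level and 5.93 against 0.949 above it.

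Genes of the interferon response and MHC class II, which immune signals induce, differed in the opposite direction. In stroma 14 of 15 were called lower in DEHP_MLT and 0 higher (8.01% and 0.996% of all genes), with a median ratio of -3.79. The MHC class II gene H2-Ab1 stood at 2.47 and 0.00635 there. In granulosa and surface cells 15 of 15 were lower (7.53% and 10% of all genes), and in germ cells 12 of 12 (3.36%). Within the library labelled MLT alone, stromal cells with at least 5 MHC class II UMIs per 10000 (601 cells) had Id1 at 0.503 (0.448 to 0.562). Those without any (776 cells, of median depth 10126 against 10236 UMIs) had 0.843 (0.780 to 0.910). Id2 was 3.48 and 3.98 and Id3 2.05 and 2.43, both with intervals apart, and Id4 was 0.153 and 0.118 with overlapping intervals. In granulosa cells the intervals of these groups overlapped for each of the 4 genes. Between the libraries, stromal cells without any MHC class II UMI had an Id1 ratio of 2.31 (2.21 to 2.44), Id2 of 0.81 and Id3 of 1.30.

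Upstream of the Id genes, the lists of BMP signalling genes were short above the minimum level, and most of their counts of calls can be read only against the shares of all genes given above. Of 16 ligand genes, 1 to 4 per class reached the minimum level. Bmp4 in granulosa cells stood at 0.837 and 0.836 per 10000, Bmp6 in stroma at 0.283 and 0.321, and Gdf9, an oocyte ligand, in germ cells at 1.80 and 1.34. Bmp2 in endothelial cells was called lower, at 0.222 and 0.0804, and Gdf9 called higher in surface cells, at 0.124 and 0.217, beside germ cell gate markers at 0.340 and 1.09 in the same cells. Of 13 receptor genes, 0 of 7 were called higher and 2 lower in stroma (0.996% and 8.01% of all genes). These were Bmpr2 (0.865 and 0.559), the type II BMP receptor, and Amhr2, the receptor of anti-Müllerian hormone (0.292 and 0.165). Amhr2 labelled MLT was also 0.299 in germ, 0.277 in perivascular and 0.263 in endothelial cells, against 3.53 in granulosa and 4.01 in surface cells. The part of free RNA in its stromal level was not tested. The endothelial co-receptor Eng stood at 4.43 and 5.41 in endothelial cells and was not called there. It was called higher in perivascular cells, at 0.627 and 1.10, where the co-receptor Tgfbr3 was called lower, at 0.674 and 0.363. Of the transducers Smad1, Smad5, Smad9 and Smad4, none of the 3 above the minimum in stroma was called: Smad5 was 1.05 and 1.13, Smad1 0.513 and 0.449, and Smad4 1.03 and 0.917. Over the 6 classes only Smad4 in perivascular cells was called, as lower, at 1.24 and 0.796.

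Of 12 other genes that BMP-Smad signalling induces, only 2 reached the minimum in stroma. Neither was called, and with 0.996% of all genes called higher there this count says little about such genes. Smad7, which blocks the receptors, stood there at 0.900 and 0.933, and Bambi, a decoy receptor, at 0.601 and 0.643. Both genes also belong to the list of BMP inhibitors, of which 0 of 8 were called in stroma and the median ratio was -0.05. The most abundant of them, Fstl1, a secreted follistatin-like protein, stood at 4.98 and 5.10. Smad6, an inhibitory Smad, was under the minimum in each class, with 0.0656 and 0.0769 in stroma. In granulosa cells Msx1 was called higher (0.184 and 0.313) and Smad7 lower (0.507 and 0.320). In perivascular cells the protease Htra1 (3.23 and 1.84) was called lower.

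The E proteins are the partners of the Id proteins. The genes Tcf3, Tcf4 and Tcf12 were called different in 0 of the 6 classes. In stroma Tcf3 stood at 0.669 and 0.820, Tcf4 at 4.29 and 3.80, and Tcf12 at 1.79 and 1.39. Tcf4 was highest in endothelial cells, at 10.8 and 9.19, the class that was also highest for Id1 and Id3. Ratios over the classes ran from 0.07 to 0.38 for Tcf3, from -0.24 to 0.15 for Tcf4 and from -0.44 to -0.32 for Tcf12. Of the tissue-specific bHLH factors, Figla and Sohlh1 in germ cells stood at 6.65 and 7.51 and at 5.25 and 5.20, neither called. Tcf21, a factor of mesenchymal progenitors, was called higher in stroma, at 2.02 and 3.70 (ratio 0.87), and in perivascular cells, at 0.497 and 0.773. Hes1, a bHLH repressor downstream of Notch, was called lower in granulosa cells (4.49 and 2.22) and surface cells (3.09 and 1.40). Heyl, another Notch target, was called higher in perivascular cells (0.972 and 1.66). Figla was called higher in surface cells, at 0.231 and 0.678, beside the germ cell markers given above. Of the cell cycle genes 8 of 16 were lower in surface cells, 4 of 12 in granulosa cells and 3 of 16 in endothelial cells, against 10%, 7.53% and 10.4% of all genes, with 0 higher. In stroma 1 of 14 was lower, near the 8.01% of all genes, and in germ cells 1 of 16, against 3.36% of all genes. Perivascular cells had 1 of 16 higher and 1 lower, near the 4.79% and 9.21% of all genes. The higher one was Cdkn1a, an inhibitor of cyclin-dependent kinases (0.251 and 0.560), and the lower its relative Cdkn1b (0.904 and 0.371).

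Over the 12 values of class and library, Id1 and Id3 had a Pearson correlation of 0.80 on the log2 scale. It was 0.79 for Id2 and Id4, 0.73 for Id2 and Id3, 0.56 for Id3 and Id4, 0.38 for Id1 and Id2, and 0.16 for Id1 and Id4. These values share 2 libraries, and free RNA within each, so these correlations are only a description. Among 6043 other genes above 0.5 per 10000 in at least 1 value, those most like Id1 were Eif3f (0.89), Arhgdia (0.87) and Lrrc8a (0.86). Most like Id2 were Pcnp (0.91), Copz2 (0.90) and Emilin1 (0.89), and most like Id3 were Rtl8a (0.94), Szrd1 (0.94) and Map3k3 (0.92). Most like Id4 were Galnt16 (0.99), Tbx3os1 (0.97) and Pdgfrb (0.97), the last a receptor of pericytes, which stood at 3.61 and 5.12 per 10000 in perivascular cells and at 0.524 and 0.526 in stroma.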

How the data were processed

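The data were 2 libraries of the 10x 3′ assay, 1 per group, deposited by the authors as tables of raw UMI counts per gene and cell. Per the submitters' processing notes, Cell Ranger, Seurat 4.2.0 and the mouse build mm9 were used, with no Cell Ranger version and no further settings. The values are whole numbers and were used as deposited.

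A barcode was kept if it had 500 or more genes detected and no more than 20% of its UMIs from mitochondria, which left 5199 of 5277 labelled MLT and 4819 of 4819 labelled DEHP_MLT. A cell entered a class with at least 3 UMIs of its gate markers and a summed level of at least 5 per 10000 for germ (Ddx4, Dazl, Sycp3), 5 for granulosa (Fst, Hsd3b1, Inha, Aard), 3 for surface (Upk3b, Krt7), 30 for stroma (Col1a1, Col1a2, Col3a1, Dcn), 5 for perivascular (Rgs5, Myh11) and 4 for endothelial cells (Cdh5, Cldn5). Immune cells needed 10 and red cell precursors 300. Cells in several gates were left out, except that perivascular came before stroma. No doublet caller was run, so doublets may remain. The gate minimums were set after the marker distributions were seen. The order of perivascular before stroma was set after Id levels were seen, and the splits by Rgs5 and Myh11, immediate-early level, MHC class II (cutoff 5 per 10000) and cluster were added after the data were seen. The Id genes and the gene lists were chosen with earlier results of these data known.

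Levels are UMIs per 10000 of the class total. Ratios used a pseudocount of 0.01 per 10000, and their intervals are conditional binomial without it. With 1 library per group no test between groups was possible and no p-value is given. The calls are a fixed rule of size. The rule for named genes took, for each Id gene, the 3 with the highest Pearson correlation, the E proteins, and of each list the most abundant member and up to 3 with the highest and 3 with the lowest ratio in a class. List members named beyond it (among them Smad6, Figla and Sohlh1) were chosen after their values were seen. Python 3.11.15, numpy 2.4.6, scipy 1.17.1, pandas 2.3.3, scikit-learn 1.9.0, igraph 0.11.9 and matplotlib 3.10.9 were used. The call rule was also run on stromal counts simulated with set fold changes and counting error only. That run checks the arithmetic of the rule and says nothing about the spread between animals or libraries. Alternatives changed the gates, totals, weighting, pseudocount, level minimum, fold and depth.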

Additional observations from a re-analysis of the deposited data

Results flagged for a closer look

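Id2 in perivascular cells had a log2 ratio of -0.60, DEHP_MLT over MLT, while it was above 0 with intervals apart in granulosa, surface, stromal and endothelial cells. The difference between the classes was not tested.

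Id2 was also counted in immune cells, which no comparison above uses, at 3.12 per 10000 labelled MLT (160 cells) and 4.19 labelled DEHP_MLT (65 cells), above its level of 0.173 and 0.214 in red cell precursors. Id4 had 0 UMIs in these immune cells in both libraries.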

How the results depend on the processing

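No paired analysis was possible because each group has 1 library. Of the 24 pairs of gene and class, 14 met the call rule as higher and 1 as lower. Over 17 alternatives the number higher ran from 8, with a fold of 2, to 17, in cells above the median immediate-early level. Shares of all genes called were not computed under these alternatives. The number lower was 0 with the gate minimum halved, with totals without mitochondrial, ribosomal and haemoglobin genes, with ratios centred on the median of all genes, in Leiden clusters, with a fold of 2 and in cells above the median immediate-early level, so the lower Id2 of perivascular cells depends on these settings. Its ratio ran from -1.25 to -0.07. Of the ratios that met the rule, the one that changed sign was Id1 in surface cells, at -0.19 in those without Mki67 or Top2a UMIs, and the cause was not tested. Id1 in stroma ran from 1.43 to 2.67, Id2 from 0.59 to 0.99 and Id3 from 0.72 to 1.63. Shares of cells with intervals apart were higher in 9 pairs at 2000 UMIs and 11 at 10000, against 14 at 5000, and lower in 0 without thinning. These counts too have no counterpart over all genes. Depth limits Id4 outside perivascular cells and stroma, where 15 to 247 UMIs stood behind a level.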
